A study of Homo sapiens with 2 samples.

Results

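The BCL2 family was examined through 10 of its genes in HCT15 cells, a widely used line from a human colorectal adenocarcinoma. The genes were 3 that oppose apoptosis (MCL1, BCL2L1 and BCL2) and 7 that promote it. Every probe set whose platform annotation named exactly 1 of these genes was taken, which gave 30 probe sets for 9 of the 10 genes, among 19775 genes on the array. BBC3, which encodes the BH3-only protein PUMA, had no such probe set, since its only one is annotated to 3 gene symbols together. RNA came from 1 culture labelled as an ARID3B knockout, which had received Cas9 and an ARID3B guide RNA, and from 1 control culture. Both grew in RPMI with 10% fetal bovine serum. Whether the edited cells were a clone or a pool, and what the control cells had received, is not stated in the sources at hand. ARID3B is a transcription regulator with an AT-rich interaction domain.

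BCL2 family proteins meet at the outer mitochondrial membrane and decide whether it is breached. The effectors BAX and BAK1 form pores that release cytochrome c, the anti-apoptotic proteins hold them in check, and the BH3-only proteins carry stress signals by binding to the anti-apoptotic proteins or to the effectors themselves. In intestinal epithelium and colorectal cancer cells BCL2L1 and MCL1 are well-known survival proteins. NOXA, the product of PMAIP1, binds chiefly to MCL1, whereas BIM, the product of BCL2L11, binds to all the main anti-apoptotic proteins.

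Each group had 1 array, so no test was possible, no difference has a replicate check, and the precision is limited by the number of arrays. Values are log2 expression after RMA, and a difference is always the value on the knockout-labelled array minus that on the control array. The probe set of highest mean stood for a gene, which was compared when its higher value reached 4.59, the median of all probe sets, called the floor. That left 12841 genes, which differed with a spread (scaled median absolute deviation) of 0.354. ARID3B itself read 6.09 on the knockout-labelled array against 5.12 on the control in its single probe set, a difference of 0.97. Where its probes lie relative to the edit is not stated. The label is not borne out by a lower transcript, and every direction below rests on the label alone. Poly-A spike-ins, bacterial transcripts added to RNA before labelling, differed by a mean of -1.19 over 24 probe sets, and their part in the results was not tested. In bulk RNA a change in every cell and a change in some cells cannot be told apart. Of 10 colorectal epithelial markers 8 were above the floor on at least 1 array, led by KRT18 and EPCAM, while KRT20 and CDH17 were under it on both. Of markers of other cell types, 2 of 4 haematopoietic (CD14 and CD3E), 2 of 6 fibroblast (COL1A1 and DCN) and 2 of 5 endothelial genes (PECAM1 and TEK) with a probe set reached it, the highest being COL1A1 at 7.12 and CD14 at 6.54 on the knockout-labelled array against 6.87 and 6.51. PTPRC, COL1A2, COL3A1 and CDH5 were under it on both arrays. The part of such cells in the results was not tested.

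Promoter sequences of 3 members are shown to set members that agreed across probe sets beside one that hardly differed: PMAIP1 and BCL2L1, whose probe sets were all higher on the knockout-labelled array, and BAX, which had the smallest differences of the members with several measured probe sets. RefSeq's promoter table of GRCh38.p14 held 8 of the 10 genes. The 250 bases before the transcription start are given for PMAIP1 (chr18:59899746-59899995, plus strand), for the more upstream of the listed BCL2L1 starts (chr20:31723964-31724213, minus strand) and for BAX (chr19:48954625-48954874, plus strand). Capitals mark matches, on either strand, to GGGCGG (the GC box bound by SP1), TGACG (the core of the cyclic AMP response element, bound by CREB and ATF proteins), CACGTG (the E-box bound by MYC and USF), TGANTCA (the AP-1 site), TATAAA (the TATA box), TGACGTCA (the full cyclic AMP response element) and TGATGNAAT (the C/EBP-ATF element).
PMAIP1: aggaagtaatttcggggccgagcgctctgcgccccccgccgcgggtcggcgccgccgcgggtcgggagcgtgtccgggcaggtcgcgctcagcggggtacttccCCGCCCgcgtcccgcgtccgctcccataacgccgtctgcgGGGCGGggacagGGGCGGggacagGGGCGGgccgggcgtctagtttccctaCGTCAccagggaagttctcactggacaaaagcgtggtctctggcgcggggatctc
BCL2L1: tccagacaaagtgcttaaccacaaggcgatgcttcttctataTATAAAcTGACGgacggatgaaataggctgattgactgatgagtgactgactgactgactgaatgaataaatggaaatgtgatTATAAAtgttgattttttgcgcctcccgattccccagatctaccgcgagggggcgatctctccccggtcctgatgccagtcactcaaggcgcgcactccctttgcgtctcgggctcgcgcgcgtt
BAX: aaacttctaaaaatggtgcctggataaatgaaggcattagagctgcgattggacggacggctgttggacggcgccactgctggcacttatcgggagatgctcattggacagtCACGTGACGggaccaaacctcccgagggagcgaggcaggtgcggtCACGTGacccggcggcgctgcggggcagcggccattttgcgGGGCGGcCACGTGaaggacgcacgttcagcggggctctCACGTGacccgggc
PMAIP1 held 4 GC boxes and 1 such core, CGTCA, which began 55 bases before the start. BAX held 4 E-boxes, 1 of which overlapped a response element core and another of which lay beside a GC box. BCL2L1 held 1 core and 2 TATA boxes, which began 208 and 125 bases before the start. The window of its other listed start held no match to any of these motifs. Of all 35116 windows of this length in the table, 42.6% held a GC box, 21.2% the response element core, 6.34% an E-box, 10.7% a TATA box and 6.57% an AP-1 site. The full response element was in 1.65% of windows and the C/EBP-ATF element in 0.888%, and neither was in these 3. At least 4 E-boxes, as in BAX, were in 0.0142% of windows. At least 4 GC boxes, as in PMAIP1, were in 7.63%, and at least 2 TATA boxes, as in BCL2L1, in 2.05%. Among members not shown, GC boxes numbered 2 in BAK1, 3 in BCL2L11 and 0 to 4 in the windows of BID. BCL2 and BBC3 held 0 GC boxes, and BCL2 held 1 response element core. A tie between these motifs and the differences was not tested. These are matches of letters, and binding was not measured.

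Over the 9 measured members the brightest probe sets of 6 were higher on the knockout-labelled array, those of BAX and BIK were lower, and BCL2 was equal on both. Among all 12841 genes compared, 52.9% were higher and 45.1% lower. The median difference of the members was 0.28, against 0.04 over all genes. No measured member reached 2-fold, which 1.05% of all genes did upward and 3.79% downward. The probe set that BBC3 shares with other symbols, not counted here, was 2.10-fold higher. By brightest probe sets MCL1 alone passed 1.5-fold, as did 5.83% of genes upward and 10.5% downward. Among the dimmer probe sets, 206665_s_at and 215037_s_at of BCL2L1 were 1.55-fold and 1.56-fold higher. Probe set 204493_at of BID was 1.54-fold lower. At 1.5-fold 749 genes were higher and 1349 lower, or 542 and 1600 when the arrays were scaled on ribosomal protein genes. Scaled on the poly-A spike-ins, 11548 were higher and 97 lower, and all 9 members were higher, BAX by 1.06 and BIK by 0.85. Of the 27 member probe sets above the floor, 18 were higher, 8 lower and 1 equal.

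**Figure D1:**
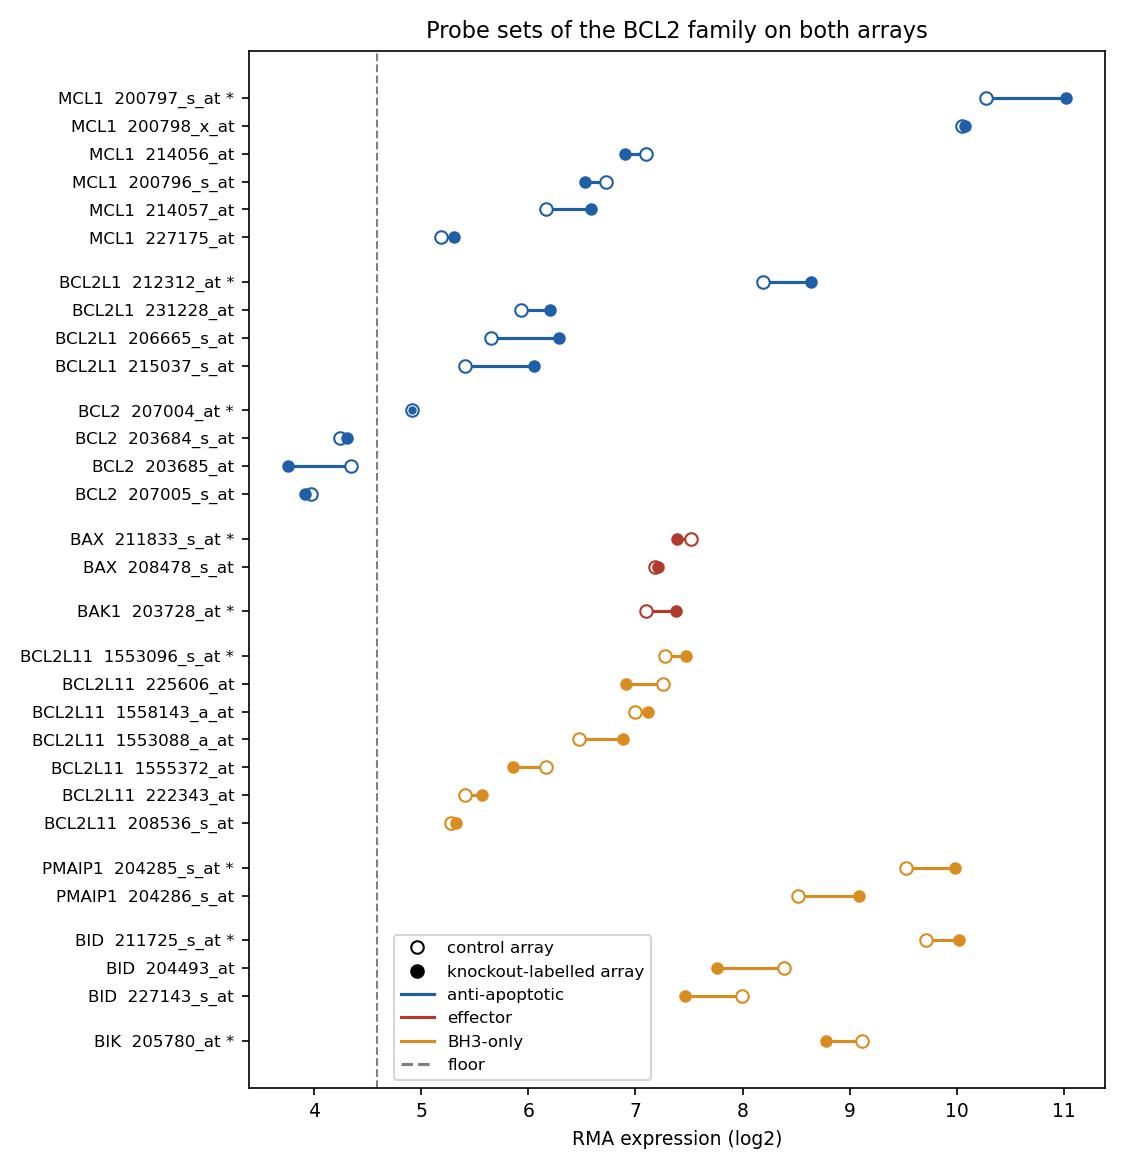
RMA log2 expression of every single-symbol probe set of the members, with the control array as open and the knockout-labelled array as filled circles; an asterisk marks the brightest probe set of a gene and the dashed line the floor of 4.59. The 4 probe sets of BCL2L1 and both of PMAIP1 lie to the right on the knockout-labelled array, those of MCL1, BCL2L11 and BID go both ways, and 3 of 4 BCL2 probe sets are under the floor.

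Of the anti-apoptotic genes, BCL2L1 was higher in every probe set. BCL2L1 encodes BCL-XL, which sequesters BAX, BAK1 and BH3-only proteins. Its brightest probe set (212312_at) read 8.63 on the knockout-labelled array against 8.19 on the control, a difference of 0.45 or 1.36-fold. The other 3 differed by 0.27, 0.63 and 0.64, so that the range within the gene was 0.38. Genes of like expression had differences with a spread of 0.388, again the scaled median absolute deviation, at the level of the brightest probe set. A difference at least as large upward was found in 10.9% of all genes.

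MCL1 is a short-lived survival protein that holds BAK1 and binds NOXA and BIM. It had the largest difference of any measured member, in 1 of its 6 probe sets. Probe set 200797_s_at read 11.01 on the knockout-labelled array against 10.27 on the control, a difference of 0.75 or 1.68-fold. Upward differences of that size were found in 2.91% of genes, and the spread at its expression level was 0.255. The next brightest, 200798_x_at, was 10.07 and 10.04, a difference of 0.03. Probe set 214057_at differed by 0.41 and 227175_at by 0.12, whereas 214056_at and 200796_s_at both differed by -0.19. The 6 probe sets thus spanned 0.94, from lower to higher, and their mean difference was 0.15. In the 176 genes with 6 or more probe sets above the floor, 71.6% had probe sets in both directions and 36.9% spanned at least as much as MCL1.

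BCL2, the founding anti-apoptotic gene of the family, was close to the floor. Its brightest probe set (207004_at) was 4.92 on both arrays, equal to every deposited digit, as was the case for 1.97% of all genes compared. The other 3 were under the floor on both arrays, and the lowest reading among them was 3.76 on the knockout-labelled array. No direction is read from these values.

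The effectors differed little. BAX read 7.39 on the knockout-labelled array against 7.52 on the control in its brightest probe set (211833_s_at), a difference of -0.13. Its other probe set (208478_s_at) was 7.21 and 7.18, a difference of 0.03. Both lay well within 0.412 and 0.436, the spreads at their expression levels. BAK1, with 1 probe set (203728_at), was 7.38 and 7.10, a difference of 0.28 or 1.22-fold, also less than its spread of 0.412.

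PMAIP1 was higher in both its probe sets and had the largest difference among the brightest probe sets of the measured BH3-only genes. It read 9.98 on the knockout-labelled array against 9.52 on the control in 204285_s_at, a difference of 0.46 or 1.37-fold. In 204286_s_at it was 9.09 and 8.51, a difference of 0.58 or 1.49-fold. The spreads at these levels were 0.365 and 0.388, and 10.4% of genes had an upward difference as large as the first. PMAIP1 is a known target of ATF4 and is induced in proteotoxic stress.

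BCL2L11 and BID each had probe sets in both directions. BCL2L11 is spliced into isoforms of unequal potency, and BID is cut by caspase-8 to link death receptors to the mitochondrion. The brightest BCL2L11 probe set (1553096_s_at) read 7.47 on the knockout-labelled array against 7.27 on the control, a difference of 0.20. The next, 225606_at, was 6.91 and 7.25, a difference of -0.34. Over its 7 probe sets 5 were higher and 2 lower, from -0.34 to 0.41. In the 68 genes with 7 or more such probe sets, 69.1% went both ways and 54.4% spanned at least as much.

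For BID the brightest probe set stood against the other two. Probe set 211725_s_at read 10.02 on the knockout-labelled array against 9.71 on the control, a difference of 0.30. By contrast 204493_at was 7.76 and 8.38, a difference of -0.62, and 227143_s_at was 7.46 and 7.99, a difference of -0.53. The lower pair exceeded their spreads of 0.387 and 0.412. The higher one exceeded its spread of 0.255, but its mean of 9.86 lay just above the edge of its expression bin at 9.84. In the bin below that edge the spread was 0.365, which its difference would not exceed. Of the 6297 genes with 2 or more such probe sets, 35.4% went both ways and 9.66% spanned at least the 0.93 of BID. The mean of the 3 differences was -0.28, so that no direction is given for BID as a gene.

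BIK was lower in its sole probe set. BIK encodes a BH3-only protein of the endoplasmic reticulum membrane. It read 8.78 on the knockout-labelled array against 9.11 on the control (205780_at), a difference of -0.33 or 1.26-fold lower. This was less than the spread of 0.388, and 19.5% of genes were at least as low.

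**Figure D2:**
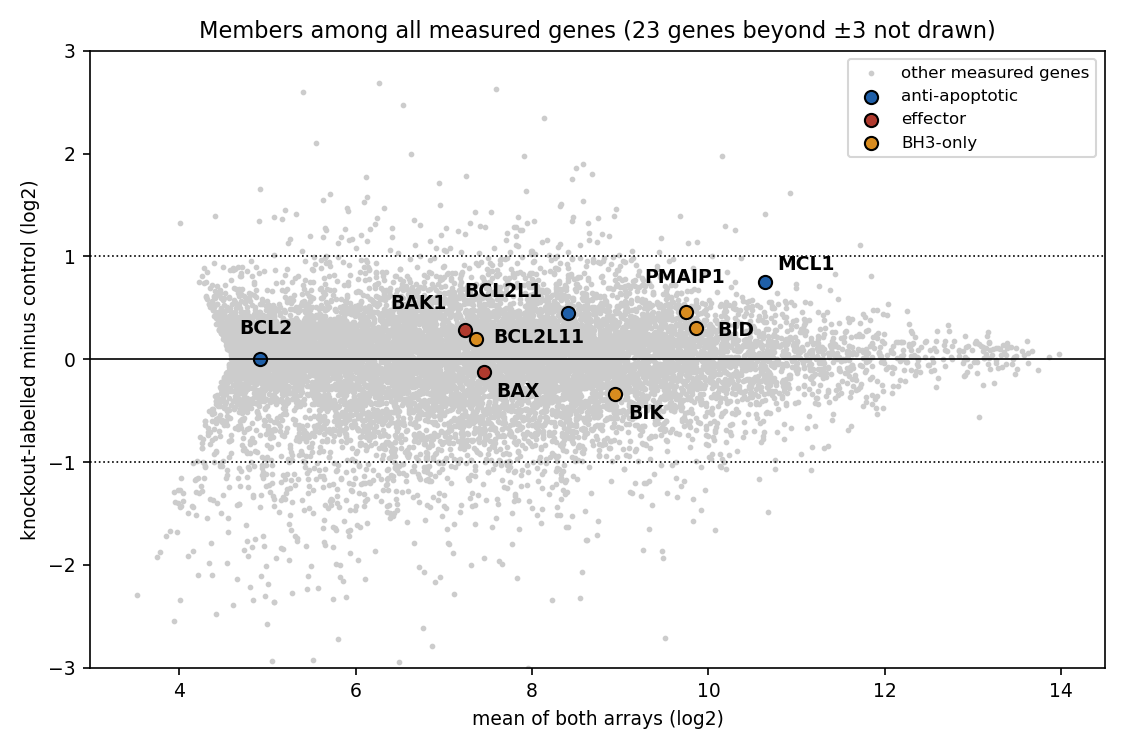
Difference between the arrays (log2, vertical) against the mean of both arrays (log2, horizontal) for the brightest probe set of each measured gene, with other genes in grey and dotted lines at 2-fold; 23 genes beyond 3 in either direction are not drawn. All 9 members lie between -0.33 for BIK and 0.75 for MCL1, inside the lines.

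Anti-apoptotic and pro-apoptotic members were then set against each other. The median difference was 0.45 for the 3 anti-apoptotic members and 0.24 for the 6 measured pro-apoptotic ones, so that the first was higher by 0.21. BBC3, whose shared probe set differed by 1.07, is not among these 6. The values of the groups overlapped, since BCL2 at 0 lay below 4 of the 6 pro-apoptotic members. Without MCL1 the gap was -0.02. When each gene was taken as the mean of its probe sets, the pro-apoptotic median was -0.0050 and the gap 0.33, with BCL2 under the floor and left out. Leaving out the probe sets with the suffix _s_at or _x_at, which can match several transcripts, gave medians of 0 and -0.34, with 2 of 7 members, BCL2L1 and BAK1, higher.

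**Figure D3:**
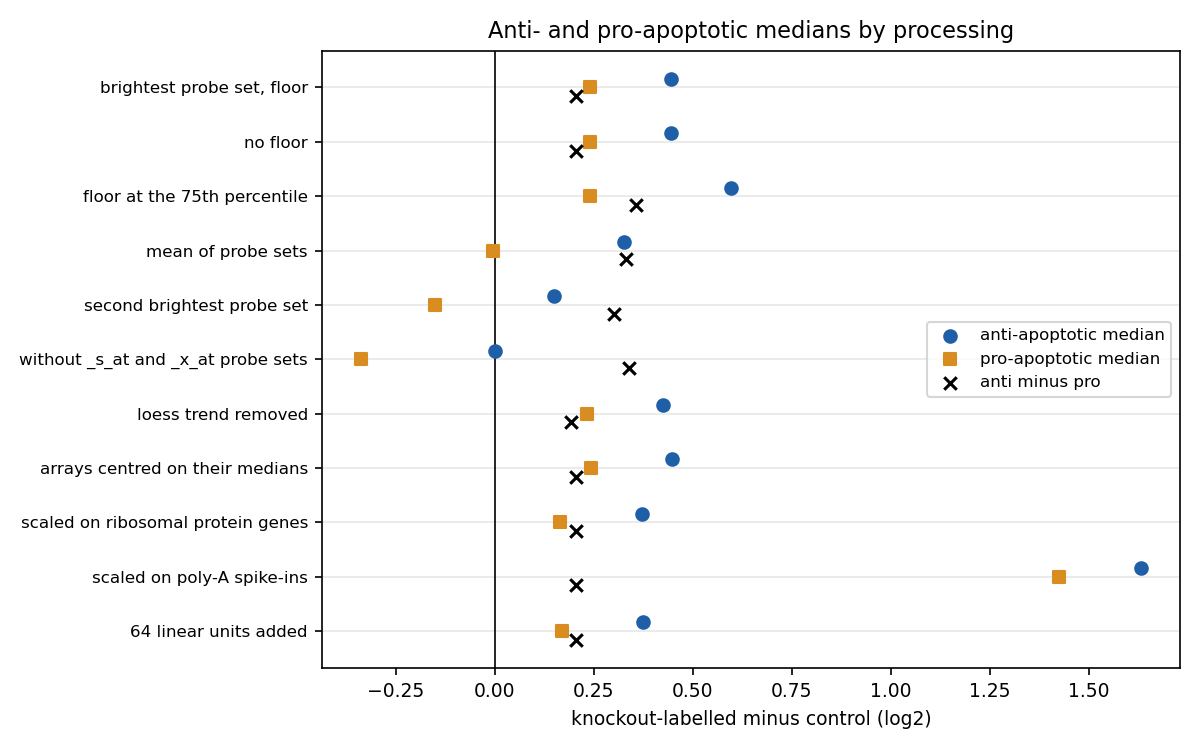
Median log2 difference of the anti-apoptotic (circles) and pro-apoptotic (squares) members and the gap between the medians (crosses) under each way of processing. The gap lies between 0.19 and 0.36 in every setting drawn, but scalings that shift all genes alike cannot change it. The higher floor, the mean of probe sets and the second brightest probe set leave out BCL2. Without _s_at and _x_at probe sets BAX and PMAIP1 are missing, so these gaps are over fewer members. Leaving out MCL1, a setting not drawn, gave a gap of -0.02. Without the poly-A scaling the pro-apoptotic median runs from -0.34 to 0.24.

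The same comparison was made gene by gene as the difference of one member minus the difference of another, which is the change of their ratio between the arrays. Of the 18 pairs of an anti-apoptotic with a pro-apoptotic member, 13 were above 0. All 6 pairs with MCL1 were above 0, as were 5 of 6 with BCL2L1 and 2 of 6 with BCL2. This count takes BCL2 and BID by their brightest probe sets, although no direction is read for either. Among all genes compared, 97.1% had a difference no higher than that of MCL1, 89.1% than that of BCL2L1 and 47.1% than that of BCL2. Most pairs of MCL1 or BCL2L1 with any gene would thus be above 0. The counts are therefore not particular to the pro-apoptotic members. With means, which leave out BCL2, 9 of 12 pairs were above 0, of which 4 were with MCL1. In 4 of the 18 pairs every combination of probe sets was above 0. These were BCL2L1 with BAX, and MCL1, BCL2L1 and BCL2 each with BIK, which has 1 probe set. BCL2 with BIK had only 1 combination. Pairs share genes and are not independent. Combinations of probe sets, here and below, reuse the same few readings of both arrays and are not replicates.

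The ratio of MCL1 to PMAIP1, whose products bind each other, depended on the probe sets. It was higher by 0.29 with the brightest probe sets and lower, at -0.36, with the means. Of 12 combinations of their probe sets 2 were above 0. MCL1 relative to BAK1 was 0.46 by the brightest probe sets and -0.13 by the means.

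The ratio of BCL2L1 to BAX was higher by 0.57, and by 0.55 with the means. All 8 combinations of their probe sets were above 0, from 0.24 to 0.77. BCL2L1 relative to BIK was higher by 0.78, with all 4 combinations above 0. BCL2L1 relative to PMAIP1 was -0.01, and 4 of 8 combinations were above 0. Relative to BCL2L11 it was 0.25, with 27 of 28 combinations above 0.

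Other genes of the family and of the steps around it were taken from lists chosen for their role, with earlier results of these data known. Of all genes compared, 52.9% were higher and 45.1% lower. Of 13 further BCL2 family genes 9 were measured, 7 higher and 2 lower, with a median of 0.11. BCL2L15, a BCL2-like gene of the gastrointestinal tract, was lowest at 6.70 on the knockout-labelled array against 7.88 on the control, a difference of -1.17, and all 3 of its probe sets above the floor were lower. BOK, a relative of BAX and BAK1, differed by -0.71 in 1 probe set. BNIP3L, a mitophagy receptor, was 9.64 and 8.86, a difference of 0.79, higher in both its probe sets. BCL2L13, an outer membrane protein, differed by 0.31 and was higher in all 4. With genes as means of their probe sets, the list median was 0.011. BCL2A1, BCL2L10, BCL2L14 and BNIP3 were under the floor on both arrays.

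Downstream of the mitochondrion, 5 of 8 measured genes of caspase activation were higher and 3 lower, with a median of 0.21. The share higher over all genes was 52.9%. HTRA2, a released protease that blocks inhibitors of apoptosis, differed by 0.65, and DIABLO, which acts alike, by 0.36. APAF1, the scaffold of the apoptosome, differed by 0.37. CASP6, an executioner caspase, differed by -0.50 and CYCS, cytochrome c, by -0.35, both lower in every probe set above the floor. The mean over the probe sets of CYCS was -1.19. The 4 measured inhibitors of apoptosis ranged from -0.27 for BIRC6 to 0.19 for XIAP, with BIRC5 at 0.15 and BIRC2 at 0.07. The 10 outer membrane and fission partners had a median of 0.14, among them VDAC2, which retains BAK1 at the membrane, at 0.35, and VDAC3 at -0.28. FIS1 differed by 0.28 and MFN1 by 0.25. With means of probe sets the median was -0.0071 for these partners, 0.019 for the inhibitors of apoptosis and 0.12 for caspase activation. Upstream of BID, CASP8 differed by 0.01, CASP10 by -0.09 and FADD by -0.17. CFLAR, which restrains caspase-8, differed by 0.36 in its brightest probe set, but 9 of its 12 above the floor were lower.

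Genes that set the stability of MCL1 and NOXA protein were higher in 7 of 9, against 52.9% of all genes. Their median was 0.12, or 0.11 with means of probe sets. FBXW7, a ubiquitin ligase subunit that marks MCL1, differed by 0.83, with 3 of 4 probe sets higher. MARCHF5, a mitochondrial ubiquitin ligase, differed by 0.60 and was higher in both probe sets. CDC20, an activator of the mitotic ubiquitin ligase, differed by 0.55, and UBE2F, of the NOXA degradation route, by -0.17. Protein was not measured.

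Among transcription factors that act on the family, 7 of 11 were higher, against 52.9% of all genes, with a median of 0.26. DDIT3 (CHOP) read 10.38 on the knockout-labelled array against 6.99 on the control, a difference of 3.39, followed by ATF3 at 0.95, ATF4 at 0.81 and the NF-kB subunit RELA at 0.73. Another NF-kB subunit gene, NFKB1, differed by -0.62 and MYC by -0.33. The 8 measured ATF4 and CHOP targets outside the family were all higher, from 0.16 to 3.85, with a median of 1.35. They were led by DDIT4 at 3.85, CHAC1 at 2.63, SESN2 at 1.78 and PPP1R15A at 1.43. This list, like the others, was chosen with earlier results of these data known, so its shared direction is not independent of that choice. PMAIP1, at 0.46, was lower than the median of these targets but within their range.

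**Figure D4:**
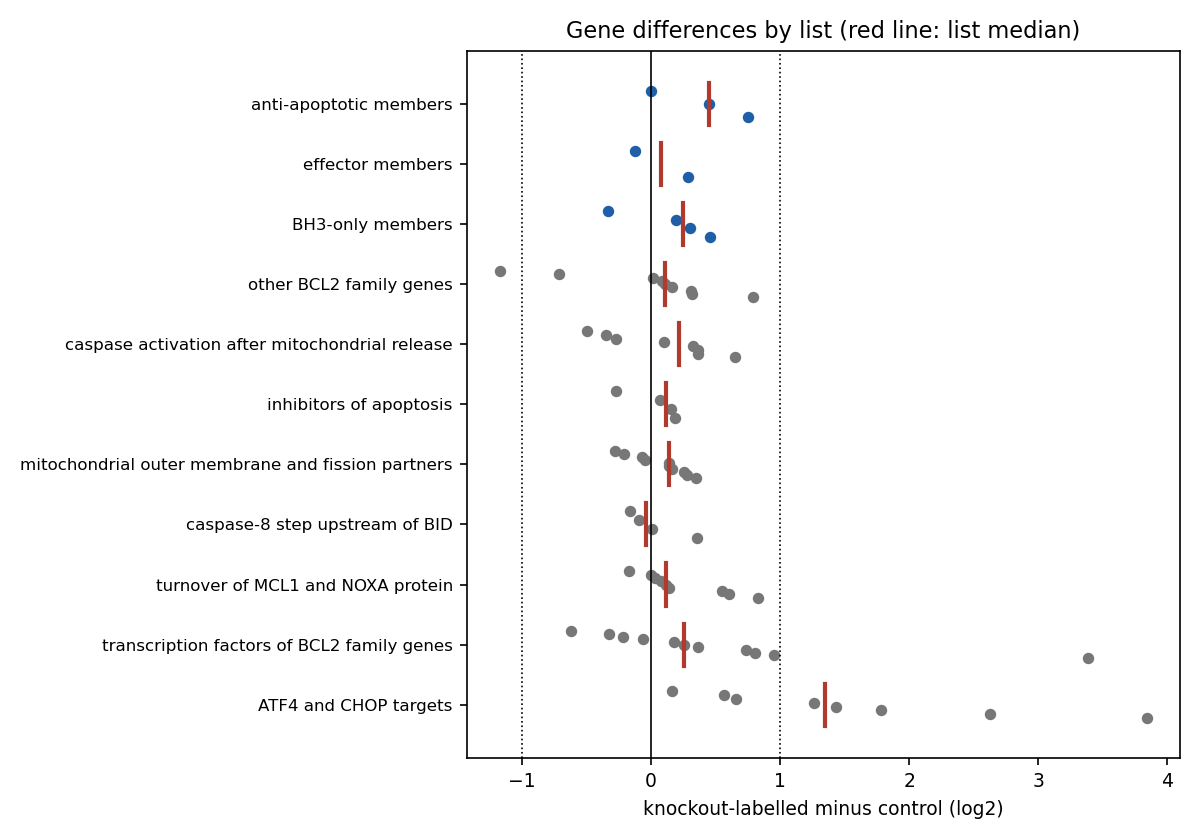
Log2 difference of each measured gene (points) and the median (red line) for the members by role (blue) and the other lists (grey), with dotted lines at 2-fold. ATF4 and CHOP targets have a median of 1.35, while the medians of the other lists drawn lie between -0.04 and 0.45.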

How the data were processed

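The deposited values are log2 expression per probe set from 2 Affymetrix arrays, made with RMA (version not stated), per the submitters' processing notes. RMA sets the arrays to a common distribution, so a difference is relative to other genes and a change in total RNA is lost; dim probe sets are compressed. Depth has no counterpart on arrays. Of 54613 probe sets other than controls, 41091 had 1 gene symbol, 1801 had several and 11721 had none; only the first kind was used. Symbols were checked by Entrez identifier against RefSeq (41037 found, 0 changed). A gene took its probe set of highest mean and was compared when its higher value was at or above 4.59 (50th percentile). Spread is the median absolute deviation times 1.4826, in 10 bins of mean expression. Lists were chosen by role, and some of their genes and 1 list are not reported here. Of them the text names up to 4 genes with the largest difference, plus, chosen after their values were seen, CYCS, NFKB1 and MYC. The members and lists were chosen with earlier results of these data known. Python 3.11.15, pandas 2.3.3 and statsmodels 0.14.6 were used, and the procedure was tested on simulated data. Alternatives tried were a floor at the 75th percentile or none, means or second brightest probe sets, no _s_at or _x_at probe sets, a loess trend removed (span 0.3), 3 other scalings, 64 linear units added, and each member left out.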

Additional observations from a re-analysis of the deposited data

Results flagged for a closer look

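A signal lay outside the probe sets used for the members. Probe set 211692_s_at is annotated to 3 symbols together, the microRNA genes MIR3190 and MIR3191 and the BH3-only gene BBC3, so its value belongs to no single gene here. It read 6.74 on the knockout-labelled array against 5.67 on the control, a difference of 1.07 or 2.10-fold. The spread at that expression level was 0.395, and 0.880% of measured genes differed upward by at least as much.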

How the results depend on the processing

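The gap between anti-apoptotic and pro-apoptotic medians was 0.21 and could not change under the 3 other scalings, which shift all genes alike, or without a floor. Under the other alternatives it ran from 0.19 to 0.36, and from -0.02 to 0.36 when each member was left out in turn. With the higher floor, the mean of probe sets and the second brightest probe set, BCL2 was not measured, and without _s_at and _x_at probe sets BAX and PMAIP1 had none. Leaving members out moved the median of all members between 0.24 and 0.29, of the anti-apoptotic between 0.22 and 0.60 and of the pro-apoptotic between 0.20 and 0.28. With the mean of probe sets the median of all members was 0.10 and the pro-apoptotic -0.0050. With the second brightest probe set these were 0.030 and -0.15, and the anti-apoptotic median 0.15. Without _s_at and _x_at probe sets they were -0.19, -0.34 and 0, with 2 members higher. MCL1 then differed by -0.19, and BID differed by -0.62, as it also did by its second brightest probe set, or by -0.28 as a mean. BCL2L11 was -0.34 in the first 2 of these. Scaled on the poly-A spike-ins every difference moved up by 1.19, giving medians of 1.47, 1.63 and 1.43 for all, anti-apoptotic and pro-apoptotic members.

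Over all genes, 749 were at least 1.5-fold higher and 1349 lower, and 135 and 487 at 2-fold. With the poly-A scaling these were 11548, 97, 9137 and 44. With 64 linear units added they were 299, 597, 46 and 117. The higher floor left 8194 of the 12841 genes, of which 898 were lower at 1.5-fold and 290 at 2-fold. The mean of probe sets left 11482 genes, with 495 and 83 higher. These counts are thus over fewer genes. With the other scalings, on array medians or ribosomal protein genes, no count of genes moved by over 1.5 times. The causes were not tested. No paired analysis was possible because each group has 1 array.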
